A study of Mus musculus with 8 samples.

Results

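The stretch described here is the beginning of the gene body, that is, the 10 kb that follow the start of each protein-coding gene of 12 kb or longer on chromosomes 1 to 19. Each stretch was divided into 10 steps of 1 kb, counted along the gene's own strand. The genes and their starts were taken from GENCODE M21 on the mouse build GRCm38 (mm10). Of 20807 protein-coding genes, 12556 were long enough, which gave 125560 steps. The start of a gene is its outermost annotated base. In 4398 of the 12556 genes the transcript with the longest coding sequence starts elsewhere, so the distance is not always that from the promoter in use. A step was measured when it held at least 5 CpGs listed in all 4 libraries and at least 20 reads in each of them. This was so for 100282 steps of 12443 genes, and all 10 steps were measured in 4245 genes. The remaining 25278 steps held fewer than 5 shared CpGs, and 113 genes had no measured step.

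The libraries came from spleens of C57BL/6J mice aged 6 to 8 weeks and were read by oxidative bisulfite sequencing of the whole genome (WGoxBS), in which the remaining C signal is meant to be 5-methylcytosine alone. They comprised CD43- B cells and naive CD4+CD62L+ T cells from females and from males, enriched on magnetic columns and then sorted, with cells of several animals pooled. The labels name 8 samples, 2 per group, but both samples of a group point to the same deposited values, so no group has a standard deviation of its own. The name of each set of values carries a number that also ends the title of 1 sample of its group. Whether the values hold only that sample or both pooled is not stated in the sources used here, and each set was counted as 1 library, 4 in all. The 2 libraries of a cell type served as its replicates, the female and the male pair each gave 1 B minus T difference, and p-values measure only the spread between these libraries. In the fit of steps for cell type and sex, this spread was pooled over all steps, and a step's own spread did not enter its p-value. No genotype, treatment or time differed between the groups.

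The libraries held between 280919817 and 354634149 reads at CpGs, with the fewest in male B cells. A measured step held a median of 11 shared CpGs and medians of 190 and 155 reads in the B cells of females and males and of 187 and 185 reads in the T cells. A methylation level is the share of methylated reads over all CpGs of a step, and it averages over all cells of a library, so fewer methylated cells and fewer methylated CpGs per cell cannot be told apart. Intervals are 95% Wilson intervals of read shares and cover counting error only. Where 0 reads were methylated, the level said to be allowed is instead 3 divided by the number of reads, which is lower than the Wilson limit.

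As background, mammalian DNA is methylated mainly at CpGs, and most CpGs of the genome are methylated. Starts of genes often lie in CpG islands, which are CpG-rich stretches that stay unmethylated, whereas the bodies of transcribed genes are usually methylated. Enhancers, which often lie in the early introns of lineage genes, lose methylation in the cells that use them. A low level within a gene body is therefore commonly read as a sign of a regulatory element or of a long unmethylated domain, although the level alone does not identify either.

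Steps ranked among the 3 largest B minus T differences of each direction (1 step per gene) are shown first by their sequence, because they show what DNA carries a nearly complete switch between the cell types. In each step the 200-base window with most CpGs listed in all 4 libraries and without an exon was taken. Sequences were read from the reference build GRCm38, 5′ to 3′ on the strand of the gene, and capitals mark the CpGs whose methylation was measured. The windows of Grap2 and Ms4a6b were methylated in B cells and the last 3 in T cells.
Grap2, chr15:80574934-80575133 (+): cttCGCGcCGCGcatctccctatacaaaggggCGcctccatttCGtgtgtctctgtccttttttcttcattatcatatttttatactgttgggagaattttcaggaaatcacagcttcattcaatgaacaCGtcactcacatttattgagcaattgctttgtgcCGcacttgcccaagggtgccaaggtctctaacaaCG
Ms4a6b, chr19:11520865-11521064 (+): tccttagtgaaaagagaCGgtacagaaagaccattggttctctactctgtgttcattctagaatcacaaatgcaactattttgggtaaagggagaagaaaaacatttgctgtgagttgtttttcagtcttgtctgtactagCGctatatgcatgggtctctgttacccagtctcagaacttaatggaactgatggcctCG
Tcf3, chr10:80429648-80429847 (-): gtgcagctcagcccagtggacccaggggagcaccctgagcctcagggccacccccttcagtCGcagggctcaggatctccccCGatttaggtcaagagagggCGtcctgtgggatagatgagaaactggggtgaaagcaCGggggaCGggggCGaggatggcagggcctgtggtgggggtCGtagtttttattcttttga
Blnk, chr19:40992638-40992837 (-): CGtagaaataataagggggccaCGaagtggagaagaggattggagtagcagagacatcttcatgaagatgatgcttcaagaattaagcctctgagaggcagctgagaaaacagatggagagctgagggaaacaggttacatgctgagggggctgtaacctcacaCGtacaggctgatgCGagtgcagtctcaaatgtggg
Odr4, chr1:150387671-150387870 (-): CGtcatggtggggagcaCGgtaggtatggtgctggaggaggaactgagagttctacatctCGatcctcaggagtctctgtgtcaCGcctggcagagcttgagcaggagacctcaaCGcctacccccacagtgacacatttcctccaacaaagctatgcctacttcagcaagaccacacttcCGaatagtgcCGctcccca

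The Grap2 window lay 2341 to 2540 bases from the gene start and held 9 CpGs. Its level in B cells was 98.0% in females (93.0% to 99.4%, 98 of 100 reads) and 96.4% in males (91.1% to 98.6%, 107 of 111). In T cells 0 of 98 reads were methylated in females, which allows a level of up to 3.06%, and 0 of 85 in males, which allows up to 3.53%. No CpG of the window was below 85.7% in a B cell library. Grap2 encodes an adaptor protein that couples the T cell receptor to its signalling chain.

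The Ms4a6b window (3 CpGs, 4354 to 4553 bases from the start) was methylated at 96.4% and 97.4% in B cells, with 0 of 31 and 0 of 43 methylated reads in T cells of females and males, which allow levels of up to 9.68% and 6.98%. Ms4a6b encodes a membrane protein of the MS4A family.

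In the windows of the other direction at least 1 read was methylated in each B cell library. The Tcf3 window (7 CpGs, 3801 to 4000 bases from the start) was at 4.08% in female B cells (1.60% to 10.0%) and 6.90% in male B cells (3.20% to 14.2%), against 98.2% and 92.2% in T cells. Tcf3 encodes the E2A proteins, basic helix-loop-helix factors needed for B cell development. The Blnk window (4 CpGs, 1699 to 1898 bases) was at 15.6% and 14.1% in B cells against 92.3% and 98.8% in T cells. Blnk encodes the adaptor of B cell receptor signalling. The Odr4 window (7 CpGs, 5211 to 5410 bases) was at 1.03% (1 of 97 reads) and 1.92% (2 of 104) in B cells against 94.4% and 97.8% in T cells, and the first 10 kb of Odr4 overlap another protein-coding gene. Its B cell levels were no higher than the limits given above for Grap2 in T cells.

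Levels rose steeply over the first 3 steps and then levelled off in every library. In the first 1 kb the median level over 11848 genes was 4.14% in B cells of females, 4.91% in those of males, 3.33% in T cells of females and 3.44% in those of males. In the same order, the medians from 1 to 2 kb were 76.0%, 75.9%, 71.2% and 71.1%. From 2 to 3 kb they were 90.6%, 90.5%, 87.3% and 87.1%, and from 9 to 10 kb 93.5%, 93.4%, 91.4% and 91.1%. Both B cell medians were above both T cell medians at every distance. The genes measured were not the same at every distance, with 9641 of them from 9 to 10 kb.

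**Figure D1:**
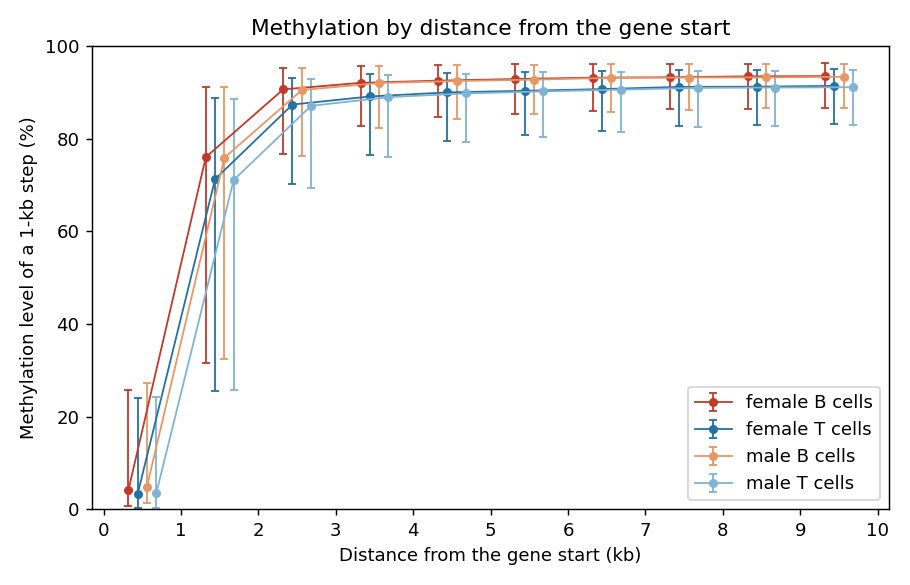
Median methylation level (%) of 1-kb steps against distance from the gene start (kb) in the 4 libraries, with bars from the lower to the upper quartile over genes. The medians rise from between 3.33% and 4.91% in the first 1 kb to between 87.1% and 90.6% from 2 to 3 kb, and the B cell points lie above the T cell points at every distance.

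The genes differed among themselves most from 1 to 2 kb, where the quartiles in female B cells were 31.5% and 91.2% and in female T cells 25.5% and 88.9%. In that step 18.7% of genes were below 20% in female B cells and 22.1% in female T cells, against 72.7% and 73.5% of genes in the first 1 kb. From 9 to 10 kb only 1.91% and 2.69% of genes were below 20%. The first step also stood apart in base composition, with a median of 48 reference CpGs and 55.8% GC, against 10 reference CpGs and 45.3% GC from 9 to 10 kb.

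Of the 11848 genes with a measured first step, 9301 (78.5%) were below 50% there in all 4 libraries. The unmethylated start of these genes usually ended early: a level of 50% or more was first met from 1 to 2 kb in 54.7% and 54.9% of them in B cells of females and males, against 51.1% and 51.1% in T cells. Only measured steps counted, so a start could not end in a step that was not measured. The step from 1 to 2 kb was measured in 10781 genes in all. In 7740 genes (83.2%) the same step ended it in B and T cells of both pairs. It was longer in T cells in both pairs for 725 genes and longer in B cells for 134. By at least 2 steps it was longer in T cells for 349 genes and in B cells for 44.

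The genes with the longest extension in T cells were Grap2, Tcf7, Rasgrp1 and Mier1. Tcf7 encodes a transcription factor of T cell development. In these 4 genes, B cells reached 50% from 1 to 2 kb in both libraries, whereas T cells reached it at no measured step. Rasgrp1 encodes an activator of Ras that acts after T cell receptor stimulation, and its levels from 2 to 3 kb were 73.1% and 63.2% in female and male B cells and 0% and 0.654% in female and male T cells. Mier1 had 7 measured steps, and 2 of them, from 1 to 2 kb and from 7 to 8 kb, were above 80% in both B cell libraries and below 50% in both T cell libraries, while the other 5 were below 31% in all libraries. From 1 to 2 kb the T cells of Mier1 were at 48.2% and 47.4%, so its extension rested on levels close to the limit.

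Over the whole stretch, B minus T was between -0.967 and -11.3 points in the longest extensions in B cells, Hoxc5, Mgat1, Cmtm7 and Serinc3. Among those in T cells it was 7.62 points in Mier1 and between 35.2 and 72.3 points in Rasgrp1, Tcf7 and Grap2. In Hoxc5, a homeobox gene, the step from 1 to 2 kb was at 25% in B cells of females, 42.0% in those of males, 50% in T cells of females and 51.0% in those of males, so the call of its end rested on T cell levels at the limit itself. In Mgat1, an enzyme of protein glycosylation, 50% was met from 2 to 3 kb in T cells and from 9 to 10 kb in B cells. This rested on the step from 2 to 3 kb alone, at 41.2% and 47.3% in B cells against 62.3% and 61.2% in T cells, since from 3 to 9 kb the T cells were at 15.7% or below. In Cmtm7, which encodes a membrane protein of the CMTM family, it was met from 2 to 3 kb in T cells and from 8 to 9 kb in B cells. T cells of Cmtm7 were below 50% again at 4 of the 5 steps from 3 to 8 kb, and the levels from 5 to 6 kb were 18.8% and 20.6% in B cells against 69.6% and 58.4% in T cells. In Serinc3 the limit was met from 3 to 4 kb in T cells and from 8 to 9 kb in B cells.

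The next question was where B and T cells differ along these stretches. B cells were more often the more methylated, by a small amount at the median step and by a large amount at a minority. Over all steps, B minus T had a median of 1.33 points in females and 1.58 points in males. B cells were also the higher over all autosomal CpGs listed in each library. The methylated share of reads there was 80.3% and 81.1% in B cells of females and males, against 78.6% and 78.9% in T cells. B cells were above T cells in both pairs at 50.5% of steps and below in both at 17.2%. In the first 1 kb, where B minus T had medians of only 0.28 and 0.804 points, B cells were above in both pairs at 53.5% of steps. At mitochondrial CpGs the methylated share was also higher in B cells, at 0.271% and 0.727% in females and males, against 0.0733% and 0.0709% in T cells. The part of such an offset in these signs was not tested. By edgeR's quasi-likelihood test over the 100282 steps, with an adjusted p under 0.05 and a mean difference of 20 points or more, 6490 steps (6.47%) were called. Of these, 5321 were higher in B cells (5.31% of steps tested) and 1169 in T cells (1.17%), and the pairs had the same sign at all 6490. Without the minimum difference 21591 steps passed the adjusted p, 83.8% of them higher in B cells. In the simulated counts described below, this looser limit let through a larger share of unchanged steps than 0.05.

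The called steps were typically partial differences. Those higher in B cells had a median level of 85.6% and 85.9% in female and male B cells and of 46.4% and 45.6% in female and male T cells. Those higher in T cells had medians of 44.6% and 45.0% in B cells against 80.7% and 80.4% in T cells. The called steps higher in B cells held a median of 10 reference CpGs and 44.9% GC, and those higher in T cells 11 and 47.1%, against 11 and 45.8% over all steps.

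The difference varied with the distance from the start. A difference of 20 points or more in both pairs in the same direction was found at 5304 steps, 4373 higher in B cells and 931 higher in T cells, and all 5304 were among the called steps. The share higher in B cells was 0.793% in the first 1 kb, 4.75% from 1 to 2 kb and 6.21% from 2 to 3 kb, the highest of the 10 steps, and it then declined to 3.83% from 8 to 9 kb and 4.03% from 9 to 10 kb. The share higher in T cells was 0.397% in the first 1 kb and between 0.924% and 1.14% at every later step. The median B minus T was also largest from 2 to 3 kb (2.02 points in females, 2.17 points in males).

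**Figure D2:**
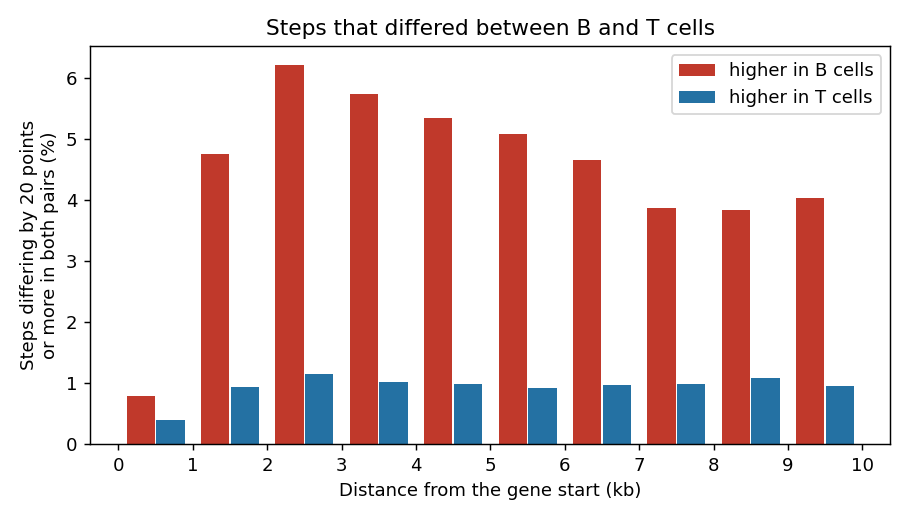
Share of measured steps (%) that differed by 20 points or more in the same direction in the female and the male pair, against distance from the gene start (kb), with separate bars for steps higher in B cells and in T cells. The share higher in B cells is highest, at 6.21%, from 2 to 3 kb, and the share higher in T cells stays between 0.924% and 1.14% after the first 1 kb.

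The shares were also counted by annotation and CpG density within the body. From 1 kb onwards, steps without an annotated exon of a protein-coding gene were called higher in B cells at 6.67% (of 62396 steps) and higher in T cells at 1.37%, and steps with an exon at 4.01% (of 26038) and 0.999%. Steps with 20 or more reference CpGs were called higher in B cells at 3.35% and higher in T cells at 0.878%, against 6.20% and 1.38% of steps with 10 to 19 and 6.21% and 1.23% of steps with fewer than 10. Steps that held an annotated transcript start, beyond the first 1 kb, were called higher in B cells at 4.12% and higher in T cells at 1.33%, against 6.01% and 1.26% of steps without one. Their parts in one another were not tested.

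The first 10 kb were set against the rest of the autosomes in fixed 1-kb windows that passed the same filter. Of the 109113 windows that touched these stretches 6.23% were called by the same B against T test, of 622344 other windows inside protein-coding genes 3.93%, and of 766211 windows outside them 2.19%. Of the called windows, 81.3% were higher in B cells in the first 10 kb and 73.2% elsewhere. These are counts over windows, which are not replicates, and no test of the difference between the classes was made.

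Short DNA words bound by lineage factors were counted in the steps from 1 kb onwards, on both strands, as a description of the sequence. TGTGGTT, a core of the sites of RUNX factors, lay in 29.4% of steps higher in B cells by 20 points in both pairs, in 26.0% of those higher in T cells and in 23.8% of all 88434 measured steps. CTTTGAA, the core recognised by TCF and LEF factors, lay in 25.7%, 18.9% and 21.4%, and AGATAAG, recognised by GATA factors, in 15.1%, 10.6% and 12.6%. In the other direction GAGGAAG, a core of the sites of PU.1, lay in 30.8%, 39.6% and 29.9%, ATTTGCA, part of the octamer, in 13.1%, 18.7% and 14.2%, and the E-box CAGCTG, read by E2A among others, in 39.2%, 47.2% and 38.6%. The median GC of the 3 classes was 45%, 47.3% and 45.1%. A match is a string of letters and not a bound site.

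Counted by gene, 2801 of the 12443 genes (22.5%) had at least 1 step with 20 points or more in both pairs. They were found by their values, so what follows on them is description. Of these genes, 2210 (17.8% of all) had a step higher in B cells, 685 (5.51%) a step higher in T cells, and 94 had steps of both kinds. A single step was involved in 1262 of the 2210 (57.1%) and in 524 of the 685 (76.5%). At least 4 steps were involved in 301 genes higher in B cells and in 20 genes higher in T cells. An adjoining step of the same gene also differed in the same direction for 49.8% of the steps higher in B cells and for 28.9% of those higher in T cells. Differences of 50 points or more in both pairs occurred in 467 genes higher in B cells and in 95 genes higher in T cells.

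The B minus T differences of the pairs went together over steps, but not always in sign. B cells were above T cells in both pairs at 50.5% of steps and below in both at 17.2%, and the rest had no shared sign. Over all 100282 steps the B minus T difference in females and that in males had a Pearson's r of 0.858 and a Spearman's rho of 0.525, across steps of the same libraries and with adjoining steps not independent. At the limit, Il4ra from 9 to 10 kb had 19.996 points in females and 34.2 points in males and fell just short, and Blk from 2 to 3 kb, with -25.5 and -19.996 points, did so too. Egfl7 from 4 to 5 kb (-21.2 and -20 points) and Mdm2 from 2 to 3 kb (21.8 and 20 points) were just inside.

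The largest steps higher in B cells included those in Grap2, Tcf7, Ms4a6b, Lef1, Pik3r5, Cd247, Acin1, Itpkb and Prkcq, with mean differences between 92.8 and 96.4 points. In Cd247 from 2 to 3 kb (chr1:165790681-165791680), an intron of the gene of the CD3 zeta chain of the T cell receptor complex, the level was 96.1% (93.2% to 97.8%) and 95.3% in B cells of females and males, against 2.51% (1.32% to 4.70%) and 1.32% in T cells. The B and T libraries were thus far apart.

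The other steps of this set also reached nearly the full scale. In Tcf7 from 4 to 5 kb the levels were 96.6% and 96.0% in B cells, and 0 of 210 and 0 of 180 reads were methylated in T cells. In Lef1 from 4 to 5 kb (chr3:131114471-131115470), a partner of Tcf7 in T cell development, they were 95.0% and 96.0% against 1.77% and 0%, and this step holds an exon. Pik3r5, a regulatory subunit of phosphoinositide 3-kinase, had 96.8% and 91.9% in B cells against 1.10% and 0% in T cells from 2 to 3 kb. Prkcq, the protein kinase C theta of T cell receptor signalling, had 96.0% and 94.8% in B cells against 2.96% and 2.17% in T cells from 3 to 4 kb. Itpkb, an inositol trisphosphate kinase, had 95.7% in both B cell libraries and 2.92% and 2.56% in T cells from 8 to 9 kb. Acin1, which codes for a nuclear protein of RNA processing, had 98.1% and 93.7% against 2.59% and 3.16% from 4 to 5 kb, and its first 10 kb overlap another protein-coding gene.

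The 10 largest steps higher in T cells lay in Tcf3, Blnk, Odr4, Irf8, Pik3c2b, Gm43552, Rasgrp3, Otub2, Chst3 and Ly86, with mean differences between -75.4 and -86.0 points. In Tcf3 from 3 to 4 kb (chr10:80429648-80430647), in an intron, the level was 2.71% (1.48% to 4.92%) and 2.60% in B cells of females and males, against 88.0% (84.5% to 90.8%) and 89.3% in T cells. In Irf8 from 1 to 2 kb (chr8:120737358-120738357), in an intron of a transcription factor gene of B cells and myeloid cells, it was 14.9% and 7.35% in B cells against 92.5% and 90.6% in T cells, on 5 CpGs and between 68 and 147 reads. In both genes the B cell libraries were low and the T cell libraries high, with no overlap.

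Ly86 was the only gene of this set whose step was the first 1 kb (chr13:37345208-37346207), which holds the gene start and 33 CpGs. It encodes a partner of the receptor CD180 on B cells, and its levels were 19.4% and 22.2% in B cells against 96.1% and 96.3% in T cells. Gm43552, a gene model without a given role, was at 0% in both B cell libraries (0 of 159 and 0 of 170 reads) and at 77.7% and 77.3% in T cells from 6 to 7 kb. Its first 10 kb, like those of Irf8, overlap another protein-coding gene. Rasgrp3, a Ras activator used by B cells, was at 18.2% and 7.78% in B cells against 85.0% and 94.7% in T cells from 7 to 8 kb. Pik3c2b, a class II phosphoinositide 3-kinase, was at 12.2% and 9.32% against 92.1% and 90.1%, and Otub2, a deubiquitinase, at 8.84% and 11.7% against 86.3% and 87.7%. Chst3, a chondroitin sulfotransferase, was at 13.9% and 9.05% against 87.0% and 87.6% from 2 to 3 kb.

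**Figure D3:**
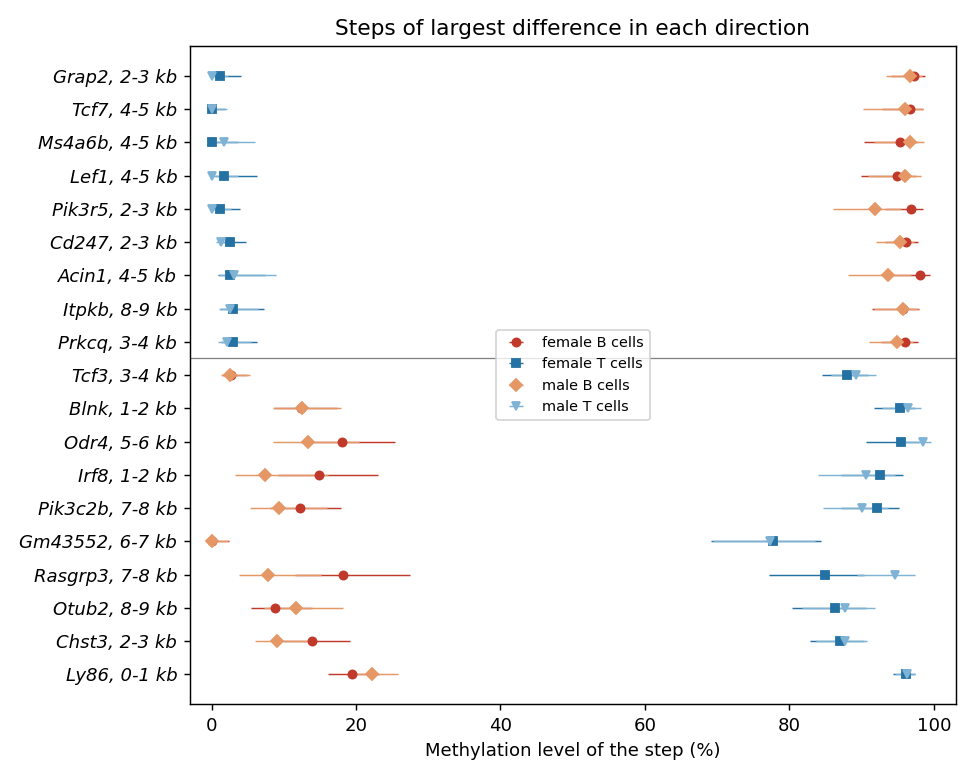
Methylation level (%) in the 4 libraries at steps of largest B minus T difference in each direction, 1 step per gene, labelled by gene and distance from the start, with 95% Wilson intervals as bars. In the upper set both B cell libraries lie above 91% and both T cell libraries below 4%, and in the lower set both B cell libraries lie below 23% and both T cell libraries above 77%.

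In some genes the switch covered the whole stretch. Cd247, Cd2, Cd5 and Cd6 differed by 20 points or more in both pairs at all 10 steps, and 87 genes did so at 5 or more steps in a row in the direction of B cells. The CD2, CD5 and CD6 proteins are surface molecules of T cells. The levels of Cd247 from 0 to 10 kb lay between 79.7% and 98.1% in B cells and between 0% and 27.1% in T cells, and the T cell levels were highest from 9 to 10 kb, with 18.5% in females and 27.1% in males. In Cd6 the T cells rose further, from 0.262% and 0.219% in the first 1 kb to 67.3% and 65.7% from 7 to 8 kb, and B cells rose from 57.0% and 52.2% to 96.1% and 96.5%.

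Such runs were shorter where T cells were the more methylated. Chst3 had 7 steps in a row, Blnk 5, and Arap1, Gm43552 and Irf8 4 each, and 2 genes in all had 5 or more. In Blnk the levels in B cells stayed between 2.50% and 31.0% over the first 5 kb and were 84.2% and 78.6% from 5 to 6 kb, and T cells were at 42.7% and 38.1% in the first 1 kb and above 86% from there on. In Arap1, a regulator of small GTPases, the run from 6 to 10 kb was at 18.4% and 19.2% in B cells against 78.3% and 76.6% in T cells. Irf8 had its largest difference from 1 to 2 kb and a separate run from 6 to 10 kb, at 34.9% and 37.2% against 86.1% and 88.5%.

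**Figure D4:**
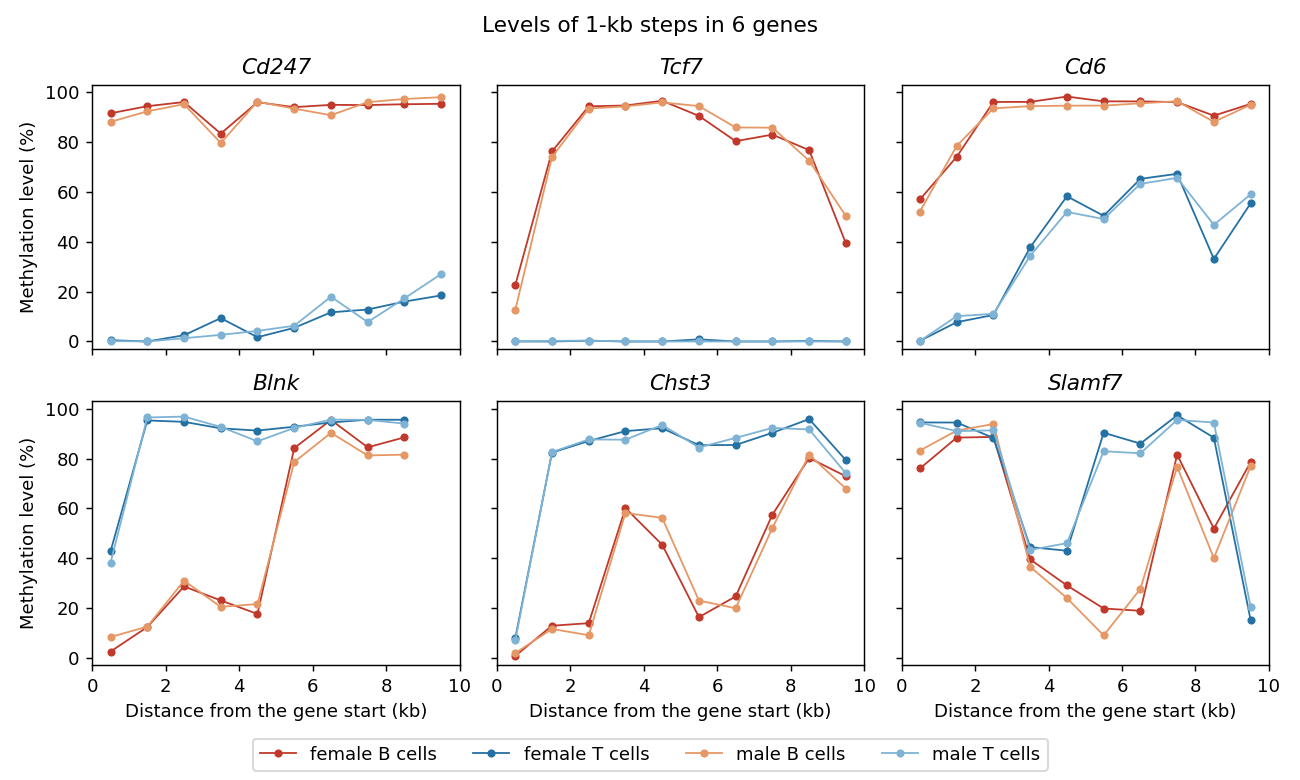
Methylation level (%) of every measured 1-kb step against distance from the gene start (kb) in the 4 libraries for 6 genes. Cd247, Tcf7 and Cd6 are more methylated in B cells than in T cells along most of the stretch, Blnk and Chst3 show the opposite over several kb, and Slamf7 changes direction at 9 to 10 kb, where B cells are at 78.5% and 76.9% and T cells at 15.2% and 20.4%.

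In 94 genes the direction turned within the stretch, and the 4 with the largest differences of both kinds were Slamf7, Zfp592, Zfp386 and Irgc1. Slamf7, a receptor of the SLAM family of lymphocytes, was at 19.8% and 8.97% in B cells against 90.3% and 82.9% in T cells from 5 to 6 kb. From 9 to 10 kb it was at 78.5% and 76.9% in B cells against 15.2% and 20.4% in T cells. In Zfp592, a zinc finger gene, the direction turned between neighbours. From 7 to 8 kb it was at 90.9% and 91.8% in B cells against 35.2% and 29.0% in T cells, and from 8 to 9 kb at 13.2% and 13.4% in B cells against 79.6% and 87.2% in T cells. Zfp386 was higher in B cells from 1 to 2 kb (66.3% and 65.7% against 14.7% and 16.1%) and higher in T cells from 6 to 7 kb (22.5% and 18.9% against 76.6% and 79.3%). Irgc1 was higher in B cells from 5 to 6 kb (78.7% and 75.6% against 22.3% and 26.7%) and higher in T cells from 7 to 8 kb and from 9 to 10 kb.

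Summed over the whole first 10 kb, 228 genes were called by edgeR (adjusted p under 0.05 and 20 points or more). Of these, 216 were higher in B cells (1.74% of 12443 genes) and 12 in T cells (0.0964%). Cd247 had 93.9% and 93.0% in female and male B cells and 5.49% and 6.10% in female and male T cells, 87.6 points apart on average (adjusted p of 3.44e-09 by edgeR). Grap2 had 72.3 points (adjusted p of 9.95e-09 by edgeR) and Ms4a6b had 66.7 points over 5 measured steps (adjusted p of 1.60e-07 by edgeR). CpG-rich first steps weigh heavily in such sums, and without the first 1 kb 480 genes were called.

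The 12 genes higher in T cells, named here after their values were seen beyond the first 4, were Blnk, Ly86, Chst3, Irf8, Klra1, Vmn2r27, Gm8369, Cd180, Ehd2, Ms4a1, Pou2af1 and Blk. Blnk had 40.6% and 40.4% in B cells against 84.6% and 85.8% in T cells, -44.7 points apart (adjusted p of 5.01e-07 by edgeR). Ly86 had -36.2 points (adjusted p of 3.70e-06 by edgeR), Chst3 -30.1 points (1.08e-05) and Irf8 -28.4 points (1.41e-05). Ms4a1 encodes CD20, Pou2af1 the octamer coactivator of B cells and Blk a Src family kinase of B cells. Klra1 and Gm8369 had only 1 measured step.

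Gene lists by function were then counted. The defining genes of each cell type served as a check of the labels, to be read against the 17.8% of all genes with a step higher in B cells and the 5.51% with a step higher in T cells. These genes and the lists below were chosen with earlier results of these data known, so the check is not independent. Of 12 B cell markers, 9 were members, and 7 of these had a step of 20 points or more in both pairs that was higher in T cells and 0 a step higher in B cells. Pax5, the identity factor of B cells, was at 21.3% and 17.8% in B cells against 73.6% and 86.2% in T cells in its first 1 kb, and Cd22 at 10.96% and 14.0% against 70.8% and 71.1%. Over the whole stretch both differed far less. Pax5 was low in all libraries there, at 2.63% and 3.80% in B cells against 8.92% and 9.53% in T cells, and Cd22 differed by -8.80 points. Ebf1 and Cr2 had no such step, with largest mean differences of -24.4 and -6.24 points. Of 15 T cell markers, 11 were members, and 10 had a step higher in B cells, Cd28 being the exception with levels over the whole stretch of 96.0% and 95.5% in B cells against 95.2% and 94.7% in T cells. Cd4 differed by 60.3 points and Lck by 64.7 points over the whole stretch. Over that stretch 3 of the 9 B cell markers were called higher in T cells, where 0.0964% of all genes were. Of the 11 T cell markers 10 were called higher in B cells, where 1.74% of all genes were.

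Markers of other cells that could remain after the sort were counted the same way, beside the same shares of all genes (17.8% and 5.51%). Of 6 myeloid markers that were members, 3 had a step higher in B cells and 0 a step higher in T cells, and of 2 markers of natural killer and cytotoxic cells 1 had a step higher in B cells. The summed level over the whole stretch of the myeloid markers had medians of 75.8% and 77.7% in B cells against 75.6% and 76.8% in T cells. Cd8b1, a subunit of the CD8 coreceptor that naive CD4+ cells do not display, was at 91.1% and 91.7% in B cells against 60.6% and 62.5% in T cells over the whole stretch. From 8 to 9 kb it was at 92.2% and 91.8% in B cells against 32.5% and 36.6% in T cells. Whether CD8 T cells in the sort had a part in this was not tested.

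Genes of T cell identity and receptor signalling had, among the lists by function, the highest share of genes with a step higher in B cells. Of 45 members, 37 (82.2%) had a step higher in B cells by 20 points in both pairs, against 17.8% of all genes, and 31 were called over the whole stretch in that direction, where 1.74% of all genes were. In the other direction 1 (2.22%, against 5.51% of all genes) had a step, Nfatc1, a factor downstream of the antigen receptors, with 21.1% and 29.5% in B cells against 72.8% and 72.2% in T cells from 3 to 4 kb, and it also had 1 step higher in B cells. The median B minus T difference of the list over the whole stretch was 25.1 points, against 2.84 points over all genes. Tcf7 and Lef1 had 9 and 7 such steps, and in both the T cells were below 0.6% over the whole stretch (0.104% and 0.0889% in Tcf7, 0.551% and 0.450% in Lef1). Bcl11b, a factor that commits cells to the T lineage, named after its values were seen, was at 34.9% and 39.2% in B cells against 0.544% and 0.651% in T cells over the whole stretch. Gata3, Ets1, Stat4, Rora, Tbx21, Inpp4b, Dgkz and Cd28 had no step that passed in either direction. Gata3, a factor of T helper cells and likewise named after its values were seen, was low in all 4 libraries, with 12.3% and 13.8% in B cells against 13.8% and 14.0% in T cells over the whole stretch.

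Genes of B cell identity and receptor signalling more often had a step higher in T cells than all genes did. Of 36 members, 19 (52.8%) had a step higher in T cells, against 5.51% of all genes, and 5 (13.9%) a step higher in B cells, against 17.8%. The median difference over the whole stretch was -3.11 points, with -5.82 points in females and -0.908 points in males, against 2.84 points over all genes. Over that stretch 6 were called higher in T cells, where 0.0964% of all genes were, and 2 higher in B cells, where 1.74% were. Besides Blnk and Irf8, Ms4a1 had 22.3% and 25% in B cells against 89.7% and 90.5% in T cells from 1 to 2 kb. The 5 genes with a step higher in B cells were Bach2, Pik3cd, Ralgps2, Prkcb and Dntt. Bach2, a repressor used in B and T cells and also on the T cell list, was at 68.8% and 69.5% in B cells against 5.79% and 5.32% in T cells from 3 to 4 kb. Pik3cd, the delta catalytic subunit of phosphoinositide 3-kinase of lymphocytes, was at 68.7% and 74.4% against 10.6% and 5.98% from 2 to 3 kb.

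Receptors for cytokines and chemokines, a list that also holds homing integrins, more often had a step higher in B cells than all genes did. Of 31 members, 24 (77.4%) had a step higher in B cells, against 17.8% of all genes, and 1, Ccr6, also had a step higher in T cells, against 5.51%. The median difference over the whole stretch was 14.4 points, against 2.84 points over all genes, and 7 were called higher in B cells over that stretch, where 1.74% of all genes were. Il7r, the receptor of the survival cytokine of naive T cells, was at 95.3% and 88.2% in B cells against 21.3% and 8.57% in T cells from 5 to 6 kb. Tgfbr2 was at 88.9% and 82.5% against 12.2% and 7.43% from 3 to 4 kb, Il6st at 88.8% and 83.1% against 11.01% and 10.3% from 2 to 3 kb, and Itgal, a chain of the integrin LFA-1, at 93.5% and 90.9% against 20.2% and 16.1% from 2 to 3 kb.

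Myeloid genes and genes of the methylation machinery were counted as well. Of 15 myeloid genes 4 (26.7%) had a step higher in B cells, against 17.8% of all genes, and 0 a step higher in T cells, against 5.51%. Their median difference over the whole stretch was -0.0229 points, against 2.84 points over all genes. Spi1, which encodes PU.1, was at 88.2% and 90.6% in B cells against 22.3% and 35.4% in T cells from 6 to 7 kb, Fcgr3 at 79.4% and 76.1% against 17.4% and 9.25% from 4 to 5 kb, Itgam at 58.3% and 73.8% against 25.5% and 31.8%, and Fgr at 92.2% and 90.7% against 45.4% and 63.0%. Among 12 genes of the methylation machinery, Mbd2, a reader of methylated CpGs, and Tet3, an oxidase of 5-methylcytosine, had steps higher in B cells (16.7%, against 17.8% of all genes), and Apobec1, Uhrf1 and Mbd4 steps higher in T cells (25% of the 12, against 5.51% of all genes). Mbd2 had 7 such steps and was at 91.8% and 96.7% in B cells against 28.6% and 13.9% in T cells from 6 to 7 kb. Apobec1 was at 16.7% and 19.5% against 77.5% and 82.8% from 3 to 4 kb, and Uhrf1, which guides maintenance methylation, at 28.7% and 38.6% against 83.5% and 88.3% from 6 to 7 kb. Among 5 genes of natural killer and cytotoxic cells, Cd8b1 and Crtam had a step higher in B cells (40%, against 17.8% of all genes) and Gzmk a step higher in T cells (20%, against 5.51%).

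Developmental, neuronal and muscle, and housekeeping genes were near or below the shares of all genes, 17.8% with a step higher in B cells and 5.51% with a step higher in T cells. Of 30 developmental regulators 0 (0%) had a step higher in B cells and 1, Meis1 (3.33%), a step higher in T cells. Of 31 neuronal and muscle genes 1 (Actn2, 3.23%) had a step higher in B cells and 1 (Dscam, 3.23%) a step higher in T cells. Of 28 housekeeping genes 5 (17.9%) had a step higher in B cells, against 17.8% of all genes, and 0 a step higher in T cells. The largest of these was in Ywhaz, a 14-3-3 protein, at 72.5% and 78.9% in B cells against 8.96% and 6.61% in T cells from 6 to 7 kb.

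**Figure D5:**
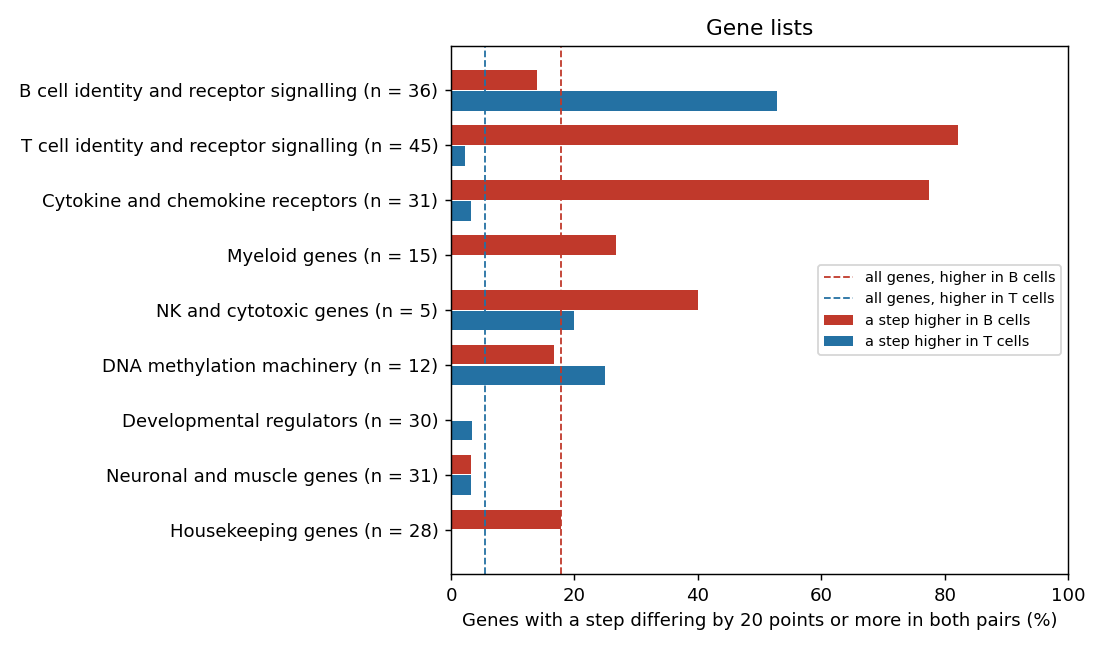
Share of the measured genes of each list (%) with at least 1 step that differed by 20 points or more in both pairs, with separate bars for either direction and dashed lines at the shares of all 12443 genes (17.8% and 5.51%). T cell genes (82.2%) and cytokine receptors (77.4%) lie far above the line for B cells, and B cell genes (52.8%) above the line for T cells.

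At the other end were genes with almost no methylation. The 6 lowest over their measured steps were Ermard, Tcte3, Gm3448, Srp54c, Gpbp1 and Gm14326, none above 0.609% in any library, but they had only 1 or 2 measured steps each, and Ermard, Tcte3 and Gm3448 shared the same 11 CpGs. Among genes with all 10 steps measured, 68 were below 20% in all 4 libraries and 19 below 10%. The lowest of these, chosen after their values were seen, included Sp9, Pax6, Irx5 and Onecut3, all genes of developmental transcription factors. Sp9 was at 4.35% in B cells of females, 4.54% in those of males, 4.37% in T cells of females and 4.64% in those of males over 478 CpGs, and Pax6, in the same order, at 3.97%, 5.24%, 4.97% and 5.44% over 360 CpGs.

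Females and males were compared in the same fit. The median size of the female minus male difference over steps was 1.52 points, against 2.57 points for B minus T. By edgeR 1 step of 100282 (0.000997%) was called, in Peg10 from 2 to 3 kb (chr6:4749306-4750305, in an intron), with 27 steps at an adjusted p under 0.05 and 5285 at an unadjusted p under 0.05. Limma on log2 odds called 0, with 4875 at an unadjusted p under 0.05. Peg10 is an imprinted gene expressed from the paternal copy. Its level was 74.6% (68.0% to 80.2%) in B cells and 51.0% (44.2% to 57.6%) in T cells of females, against 36.1% (29.2% to 43.7%) and 35.9% (26.8% to 46.1%) in males, a mean of 26.8 points higher in females with an adjusted p of 0.0034 by edgeR. The female B cell library was the highest, and the male libraries were close to each other. The call was lost with CpGs of 10 reads or more, with limma and with the newer quasi-likelihood method of edgeR.

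The next largest female minus male differences were not called. Tsc22d2 from 4 to 5 kb had 25.5 points (adjusted p of 0.507 by edgeR) and Gnpat from 1 to 2 kb 20.1 points (0.557). In the other direction Maml2 from 5 to 6 kb had -21.2 points (0.596), Cux1 from 4 to 5 kb -20.5 points (0.572) and Crx in the first 1 kb -17.5 points (0.295). The smallest libraries held 50 to 117 reads at these 5 steps.

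Whether B minus T differed between females and males was tested as well, with a call asking that each pair depart from the mean of both by 20 points or more. Each cell type of each sex is 1 library here, the spread came from the female minus male difference pooled over steps, and the p-values compare these libraries and not the sexes. By edgeR 0 of 100282 steps (0%) were called, with 7 at an adjusted p under 0.05 and 5009 at an unadjusted p under 0.05, and by limma 0 steps were called, with 0 at an adjusted p under 0.05 and 4603 at an unadjusted p under 0.05.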

How the data were processed

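Methylation was measured by WGoxBS in splenic B and T cells of female and male mice. Per the submitters' processing notes, reads were handled with FastQC, Trim Galore and Bismark 0.13.1. The values the authors deposited are, for each CpG with at least 5 reads, a methylation level as a fraction rounded up to 3 decimals and a count of reads. Methylated reads were recovered from both, as whole numbers for 100% of CpGs. Oxidation turns 5-hydroxymethylcytosine into a base that reads as T, so what is called methylated excludes it only as far as oxidation was complete. CpGs listed in all 4 libraries on chromosomes 1 to 19 were used (18214466), all of them on a CG of GRCm38.

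Methylated and unmethylated counts were summed per step, and over all measured steps of a gene, with at least 5 CpGs and 20 reads per step. They were fitted with edgeR 4.0.16 (R 4.3.3, quasi-likelihood test, legacy method), with library, methylation, and the effects of cell type and sex on methylation as terms, which left 1 residual degree of freedom. For the difference of B minus T between the sexes, that difference took the place of the sex term. The dispersion was estimated on 20000 steps drawn at random. The newer method of that edgeR release could not be fitted to steps with a count of 0 and was run on the 96113 steps without one. P-values were adjusted over all steps or genes (Benjamini-Hochberg), and a call needed an adjusted p under 0.05 and a mean difference of 20 points. Genes with 20 points in both pairs are a description. Counts were also simulated at the reads and mean levels of the 100282 steps, with the same spread at every step. They held no difference between cell types or sexes, except for B minus T changes put into 200 steps per run. Of these, 95 changes of 20 points and 200 of 40 points were called. Unchanged steps were called 0 times. The adjusted p alone was passed by 151 changed and 23 unchanged steps in the run of 20 points, and by 200 and 26 in that of 40 points. In both runs the unchanged share of the passing steps was thus larger than the 0.05 aimed at. Counts at an adjusted p alone are to be read with this limit. Of the 200 changes of 20 points, 151 passed the adjusted p and 95 were called. Those that passed without a call fell short of the measured 20 points that a call needs. The remaining changes were missed by the adjusted p itself. Steps of larger spread were not simulated. Limma 3.58.1 on log2 odds (0.5 added to counts), other filters, step widths, starts and minimum differences, and leaving out each library were tried as alternatives.

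Named genes were the 10 largest steps per direction, the 5 longest runs per direction, the 4 largest members of each list and the defining markers without a step, the steps at the limit, the 4 largest genes with both directions, the 6 lowest genes, the 3 largest sex differences per sign, the 4 largest genes over the whole stretch per direction and the 4 longest extensions per direction. The members and gene lists were chosen with earlier results of these data known. Some items that these rules name are not reported here.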

Additional observations from a re-analysis of the deposited data

Results flagged for a closer look

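By edgeR's quasi-likelihood test, B minus T of the female pair and that of the male pair differed at 7 of 100282 steps at an adjusted p under 0.05. Each value is from 1 library, the spread came from the female minus male difference pooled over steps, and the p-values compare these 4 libraries and do not measure replication, so they do not show a difference between the sexes. In none of them did each pair depart from the mean of both by 20 points, and limma found 0 steps at that adjusted p. At 5 of the 7, all in the first 1 kb, male B cells alone had a level of a few percent at an otherwise unmethylated start. B minus T in females minus that in males was -4.76 points in Entpd5, where male B cells were at 4.75% (3.36% to 6.66%) and the other libraries at or below 0.0799% (adjusted p of 0.00848 by edgeR). It was -4.58 points in Ppp4r3b (male B cells at 4.5%, adjusted p of 0.00297 by edgeR), -4.06 points in Fam241a (3.91%, 0.00556) and -4.05 points in Mef2d (3.99%, 0.00556). In G2e3 it was -3.44 points, with male B cells at 3.01% and an adjusted p of 0.0438 by edgeR.

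Male B cells also had the fewest reads over all CpGs and, at mitochondrial CpGs, which no test above used, the highest methylated share. That share was 0.727% (0.684% to 0.772%) in male B cells, 0.271% in those of females, and 0.0733% and 0.0709% in T cells of females and males. The part of either in these differences was not tested.

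The remaining steps did not follow male B cells alone. In Sugt1 from 8 to 9 kb the difference between the pairs was -18.9 points, with 88.3% in B cells of females, 100% in those of males, 100% in T cells of females and 92.7% in those of males (adjusted p of 0.0273 by edgeR). In Abhd18 in the first 1 kb it was 34.4 points, with 29.6% in B cells of females, 17.4% in those of males, 8.70% in T cells of females and 31.0% in those of males (adjusted p of 0.00115 by edgeR).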

How the results depend on the processing

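Against 6490 called steps (82.0% higher in B cells), 2801 genes with 20 points in both pairs, 228 genes called over the whole stretch, 1 step called between the sexes and a median B minus T of 1.46 points, the alternatives gave the following. With 10 CpGs and 50 reads per step there were 3311 called steps (80.2% higher in B cells), 1689 genes and a median of 1.12 points. With CpGs of 10 reads or more in every library there were 4533 called steps (78.2% higher in B cells) and 2257 genes. With these CpGs 0 steps differed between the sexes and the median was 1.17 points. From 1 kb onwards alone, 480 genes were called over the stretch and the median was 1.74 points. Counted from the start of the transcript with the longest coding sequence, there were 6672 called steps (82.3% higher in B cells). With 2-kb steps there were 3241 called steps (86.3%), 1714 genes and a median of 1.69 points. With a minimum of 10 points there were 13409 called steps (80.5%), 5147 genes, 1291 genes over the stretch, 3 steps between the sexes and 1 where B minus T differed between them. With 30 points there were 3485 steps (83.2%), 1632 genes, 65 genes over the stretch and 0 steps between the sexes. With no minimum there were 21591 steps (83.8%), 2930 genes over the stretch, 27 steps between the sexes and 7 where B minus T differed. Limma called 5294 steps (84.1% higher in B cells) and 0 steps between the sexes. The newer edgeR method, chosen after seeing the data, also called 0 steps between the sexes. Fewer or wider steps, and the minimum itself, change these counts by construction, and for the others the cause was not tested.

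Leaving out 1 library gave 6533 to 6703 called steps, 81.4% to 82.2% of them higher in B cells, 205 to 276 genes over the stretch and medians of 1.32 to 1.56 points, the lone library of a cell type being assumed to vary like the others. Of the called steps, 5936 to 6112 were called in both. The 20 largest steps kept their direction under all 151 values computed, but they were picked for their large differences, so a change of direction could hardly occur. Of these values, 20 under limma and 13 under the newer edgeR method repeat the main difference, because those methods change only the p-value. The groups share no replicate numbers, so no block by number was fitted, and the female and male pairs were set apart by the sex term of the fit. The comparisons of the sexes were not rerun without a library.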
